A study of Mus musculus with 4 samples.

Results

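Collagen chain genes encode the subunits of collagen, the most abundant protein family of the extracellular matrix. They were taken here as every gene of the table whose symbol is Col, a number, the letter a and a number, counted once per Entrez identifier. The rule gave 44 of the table's 27178 genes: 11 fibrillar chains, 6 basement membrane chains of type IV, 9 FACIT chains, which sit on the surface of fibrils, and 18 chains of other kinds. The RNA came from enteric neural crest cells of mouse embryos at 11.5 dpc (days post coitum), labelled by the Wnt1-tdT reporter. Tissue was dissociated with collagenase and dispase, and fluorescent cells were sorted before RNA was isolated.

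There were 2 wavefront libraries, from cells at the front of migration along the gut, and 2 trailing libraries, from cells 1 to 1.5 mm behind it. Both groups carried the same reporter and were of the same stage, and neither was given a treatment or a further mutation in the labels. Wnt1 is switched on in the dorsal neural tube that gives rise to the crest, and reporters of this kind are used to mark crest-derived cells by origin, whatever they have become. Whether replicates were separate embryos, litters or pools is not labelled, so p-values cover only the spread among these 4 libraries, and part of that spread may be technical. In bulk RNA, fewer cells of a type and less RNA per cell cannot be told apart.

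A collagen molecule is a triple helix of 3 chains, each a long repeat of glycine followed by a pair of other residues. Chains are hydroxylated and folded in the endoplasmic reticulum, secreted as procollagen, trimmed and cross-linked outside the cell. Fibrillar collagens build banded fibres, type IV builds the sheet of basement membranes, and crest cells entering the gut move through matrix that holds both. In mice, extra type VI collagen slows enteric crest cells, and crest cells of the gut have been reported to secrete type XVIII collagen.

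The glycine repeat can be read in the exons, and 3 coding exons are shown, from fibrillar chains where the repeat is unbroken and from a type IV chain where it breaks. Capitals mark GGN codons, which encode glycine, in the reading frame. The Col3a1 exon (coding exon 6, chr1:45325360-45325413, plus strand) and the Col1a2 exon (coding exon 8, chr6:4515481-4515534, plus strand) are each 54 bases long with a GGN codon every 9 bases. The Col4a1 exon (coding exon 9, chr8:11244486-11244569, minus strand) has 84 bases, was picked as the exon where the chain's longest unbroken repeat ends, and has unevenly spaced GGN codons. Sequences are from GRCm38 with GENCODE M21 transcripts.
Col3a1: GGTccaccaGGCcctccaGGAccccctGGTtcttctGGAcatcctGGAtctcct
Col1a2: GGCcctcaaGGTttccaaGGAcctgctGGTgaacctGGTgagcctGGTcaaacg
Col4a1: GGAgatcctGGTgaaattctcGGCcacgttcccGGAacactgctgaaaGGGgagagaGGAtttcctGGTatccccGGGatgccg
Over whole transcripts, the longest unbroken run of GGN triplets was 344 triplets in Col3a1, 339 in Col5a2 and Col1a2 and 338 in Col1a1 and Col5a1. It was 40 in Col4a1 and 30 in Col18a1. By class the median was 338 for fibrillar chains, 43.5 for type IV, 57 for FACIT chains and 44.5 for the rest. Of the 470 fibrillar exons inside such runs, 284 (60.4%) were exactly 54 bases long. So were 57 of 96 in FACIT chains (59.4%), 16 of 101 in the other chains and 2 of 24 in type IV, so this length did not set fibrillar chains apart from FACIT chains.

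Libraries differed in depth. The share of ribosomal RNA was 15.6% and 55.5% in wavefront replicates 1 and 2, against 24.4% and 26.1% in trailing replicates 1 and 2. Outside it, wavefront replicates 1 and 2 held 452144 and 114972 reads, and trailing replicates 1 and 2 held 386540 and 330644. All levels below are CPM outside ribosomal RNA, that is, counts scaled to a common total of reads that are not ribosomal. In these units 1 read is worth 2.21 and 8.70 CPM in wavefront replicates 1 and 2, and 2.59 and 3.02 CPM in trailing replicates 1 and 2. Enteric crest markers (8 genes, all with reads) summed to 4384 and 2192 CPM in wavefront libraries, against 3780 and 3076 CPM in trailing libraries, with Ret holding most of the reads. Erythroid markers (9 genes, 6 with a read) were at 2.21 and 965 CPM in wavefront replicates 1 and 2 and at 5.17 and 0 CPM in trailing replicates, so wavefront replicate 2 stood apart.

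At the wavefront, 1 collagen gene passed the count test: Col3a1, the chain of type III collagen, rose. Col5a2, the most abundant chain by reads, and the other 4 chains with enough reads for the test did not pass. The count test was edgeR's quasi-likelihood test on whole reads, with Benjamini-Hochberg adjustment over 5759 genes and a threshold of 0.05, and it called 1.74% of them (0.399% as higher, 1.34% as lower). Of the 6 collagen genes tested, 1 was higher, 0 were lower and 5 did not pass. Fold changes are wavefront over trailing, and their median on the log2 scale was 0.28 for the collagen genes, beside 0.01 for all genes tested. The test planned for CPM values was limma on log2(CPM + 1), run on the deposited CPM, whose total includes ribosomal reads. It called 0 of 27 collagen genes and 0% of 12519 genes. At an unadjusted p under 0.05, limma had 5 collagen genes (Col3a1 and Col23a1 higher, Col9a2, Col2a1 and Col9a3 lower) and 858 genes in all. Over all genes the median on the log2 scale was -0.35 in limma and -0.20 in edgeR with library size alone, so fold changes on those scales are read against these shifts. The median of the 27 collagen genes in limma was 0.36. Of those 27, 16 had under 10 reads over the 4 libraries, so most values behind that median rest on few reads. The smallest limma adjusted p of a collagen gene was 0.680.

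Collagen RNA as a whole came to 448 and 263 reads in wavefront replicates 1 and 2, against 388 and 329 in trailing replicates 1 and 2. This is 991 and 2288 CPM in wavefront libraries, against 1004 and 995 CPM in trailing libraries. Wavefront replicate 1 thus held as much collagen RNA on this scale as the trailing libraries, and wavefront replicate 2 more than any other library. With all reads as the total, ribosomal ones included, the sums were 836 and 1018 in wavefront libraries and 759 and 736 in trailing libraries, and on that scale the groups did not overlap.

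**Figure D1:**
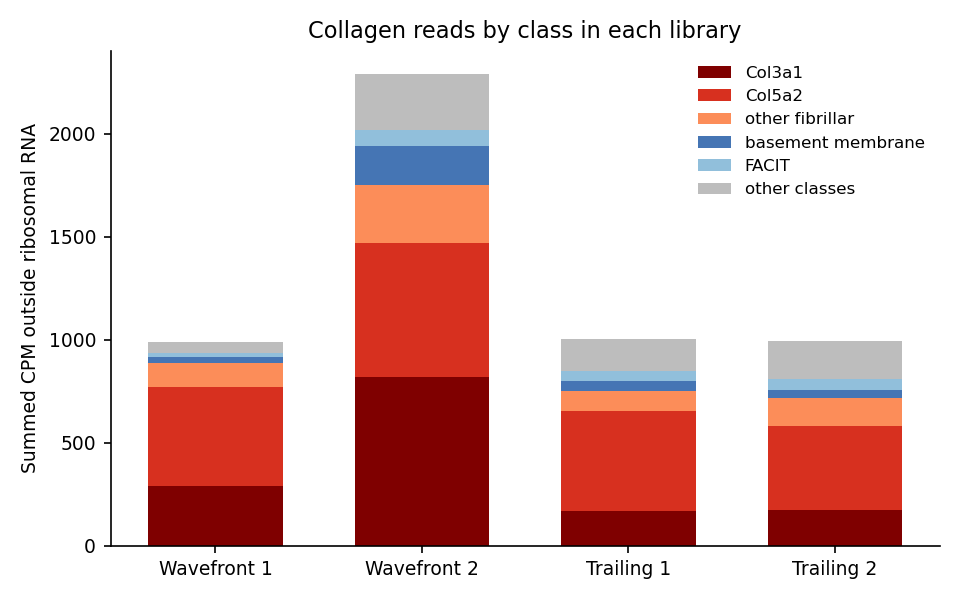
Stacked bars give the summed CPM outside ribosomal RNA of collagen genes in each of the 4 libraries, divided into Col3a1, Col5a2, other fibrillar, basement membrane, FACIT and other chains. Wavefront replicate 1 reaches 991 CPM and wavefront replicate 2 reaches 2288 CPM, against 1004 and 995 CPM in trailing replicates 1 and 2, and Col3a1 with Col5a2 makes up most of every bar.

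Fibrillar chains dominated, with 1129 of 1428 collagen reads (79.1%). They held 89.5% of the collagen reads of wavefront replicate 1 (95% exact interval 86.3 to 92.2%) and 76.4% of those of wavefront replicate 2 (70.8 to 81.4%). The trailing shares were 74.7% in replicate 1 (70.1 to 79.0%) and 72.0% in replicate 2 (66.9 to 76.8%). Wavefront replicate 1 was thus the library richest in fibrillar chains relative to other collagens, while the intervals of the other 3 libraries overlapped. Intervals cover the counting error of reads only, and not the spread between libraries. Reads carried no molecular identifiers, so repeated copies of a molecule could not be told apart, and the intervals may be too narrow. Col3a1 and Col5a2 alone made up 67.4% of all collagen reads.

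The summed level of fibrillar chains was 887 and 1748 CPM in wavefront libraries, against 750.2 and 717 CPM in trailing libraries. Without Col3a1 it was 595 and 931 CPM in wavefront libraries, against 582 and 541 CPM in trailing libraries. The groups did not overlap either way, but without Col3a1 wavefront replicate 1 was close to trailing replicate 1. With all reads as the total, the sums without Col3a1 were 502 and 414 in wavefront libraries and 440.2 and 400.2 in trailing libraries, and the groups overlapped.

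Of the 44 chains, 32 had a read in some library (72.7% where all genes gave 53.7%), and 11 had 10 or more reads over the 4 libraries. Those 11 are described below with the value in every library. Among them, both wavefront libraries lay above both trailing libraries for Col3a1 and Col1a2, and below for Col25a1, Col9a3 and Col9a2, while the other 6 overlapped. Among all 9358 genes with 10 or more reads, 15.2% lay wholly higher and 22.7% wholly lower at the wavefront, against 2 and 3 of these 11. With all reads as the total, Col18a1 also lay wholly lower. That total holds the ribosomal reads, 55.5% of wavefront replicate 2, which lowers every other gene there. The share of all genes was not counted on that scale, so this order has nothing to be read against.

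**Figure D2:**
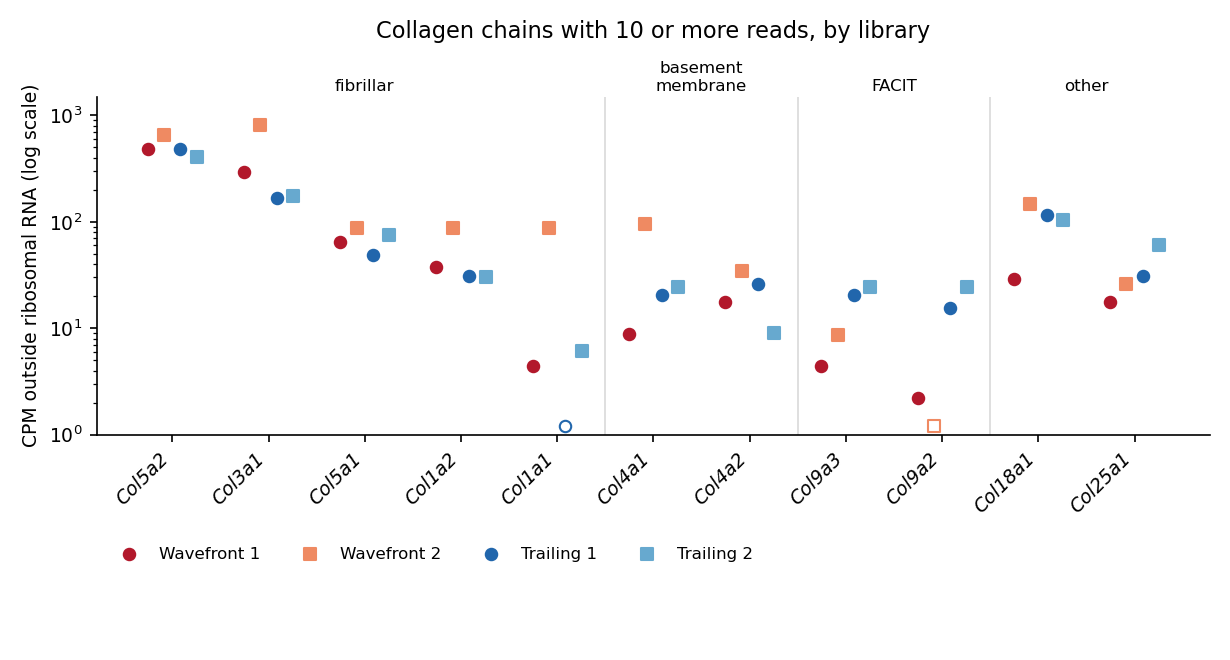
Points give the CPM outside ribosomal RNA, on a log axis, of each collagen chain with 10 or more reads in the 4 libraries, grouped by class. Open symbols at the bottom mark a library with 0 reads. Col3a1 and Col1a2 have both wavefront points above both trailing points, Col25a1, Col9a3 and Col9a2 have them below, and Col18a1 has wavefront points on either side of the trailing points.

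Col3a1 (Entrez 12825, chr1:45311538-45349706, plus strand, GRCm38) encodes type III collagen, which forms the fine fibres of hollow organs such as gut and vessels. It had 132 and 94 reads in wavefront replicates 1 and 2, against 65 and 58 reads in trailing replicates 1 and 2. In CPM this was 292 and 818 in wavefront libraries, against 168 and 175 in trailing libraries. Both wavefront libraries were above both trailing libraries, and the wavefront pair was further apart than the trailing pair. The means were 555 ± 372 CPM in wavefront libraries and 172 ± 5.13 CPM in trailing libraries (SD, n = 2 each). The edgeR log2 fold change was 1.58 ± 0.35 (SE), with an adjusted p of 0.00406. Without wavefront replicate 2 the edgeR log2 fold change of Col3a1 was 0.91, with an adjusted p of 0.191. Without wavefront replicate 1 it was 2.17, with an edgeR adjusted p of 5.53e-06. DESeq2 gave 1.60 with an adjusted p of 0.179, and called 0 of the 4 collagen genes it adjusted and 0.364% of all genes. The authors' deposited table gave 1.26 for Col3a1, with an adjusted p of 0.597 after Benjamini-Hochberg adjustment of its p-values. That adjustment called 0 of 32 collagen genes and 0.0891% of all genes. The unadjusted p-values of Col3a1 were close, at 0.000888 in DESeq2 and 0.000900 in the authors' deposited table. The adjustment covered 3841 genes in DESeq2 and 14589 for the deposited p-values, so the adjusted values are not on the same footing.

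Summed markers of several other cell types, though not of leukocytes, were also highest in wavefront replicate 2, where 1 read is worth 8.70 CPM. The list for gut mesenchyme and smooth muscle (18 genes, 12 with a read) summed to 177 and 557 CPM in wavefront replicates 1 and 2, against 49.2 and 36.3 CPM in trailing replicates. In wavefront replicate 1 most of this was Des, the muscle intermediate filament, with 73 of the list's 80 reads. Des was at 161 and 87.0 CPM in wavefront libraries, against 20.7 and 18.1 CPM in trailing libraries. It was the 1 gene of the list with enough reads for the count test. Des passed that test as higher, as did 0.399% of all genes tested, with an edgeR log2 fold change of 2.84 and an adjusted p of 1.35e-05. Without Des, which was taken out after its values were seen, the sums were 15.5 and 470 CPM in wavefront libraries, against 28.5 and 18.1 CPM in trailing libraries. Twist1, Twist2, Barx1, Myh11, Cnn1 and Osr1 had 0 reads in all libraries. Pdgfra, a receptor of mesenchymal cells, had 2 and 10 reads in wavefront replicates 1 and 2, against 1 and 1 in trailing replicates. Dcn, the matrix proteoglycan decorin, had 0 and 5 reads in wavefront libraries, against 0 and 1 in trailing libraries. The list without Des rests on few reads, with 7 in wavefront replicate 1 against 11 and 6 in trailing replicates. The part of these cells in the collagen levels of either wavefront library was not tested. Gut epithelium markers were at 26.5 and 87.0 CPM in wavefront libraries and at 7.76 and 9.07 CPM in trailing libraries. Endothelial markers were at 88.5 and 104 CPM in wavefront libraries and at 67.3 and 87.7 CPM in trailing libraries. Mesothelial markers had at most 2 reads and leukocyte markers at most 5 reads in any library.

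**Figure D3:**
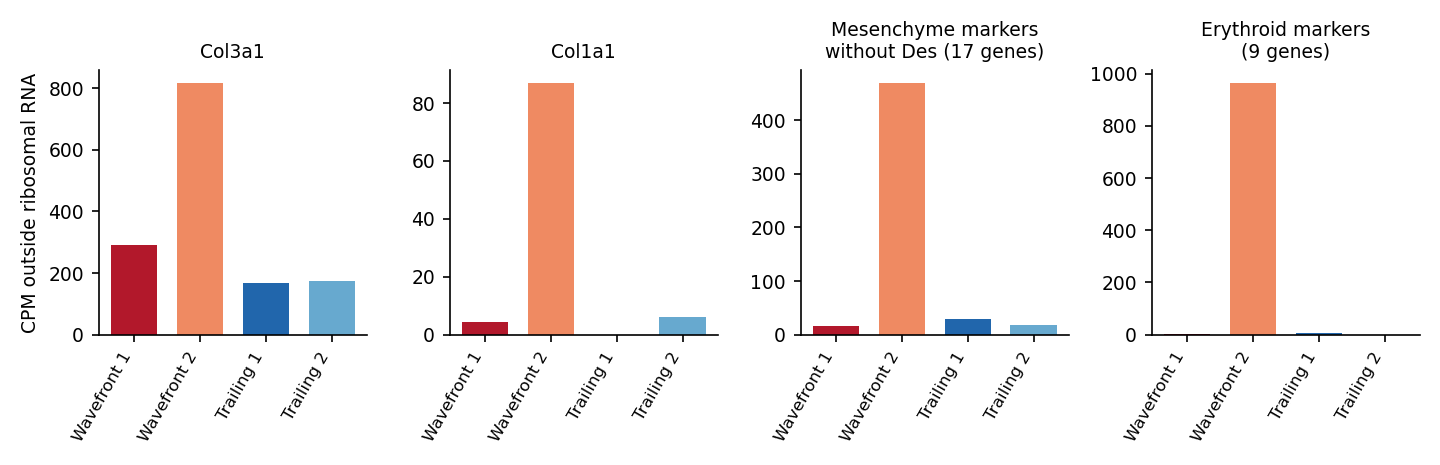
Bars give CPM outside ribosomal RNA in each library for Col3a1, Col1a1, the summed mesenchyme and smooth muscle markers without Des and the summed erythroid markers, each with its own axis from 0. Wavefront replicate 2 is the highest bar in all 4 panels, at 818 CPM for Col3a1 and 470 CPM for the mesenchyme markers without Des. Des, which was highest in wavefront replicate 1, and the other marker lists are not drawn.

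Col5a2 (Entrez 12832, chr1:45374321-45503282, minus strand) encodes the second chain of type V collagen, which starts and limits the width of fibrils. It had 217 and 75 reads in wavefront replicates 1 and 2, against 187 and 134 reads in trailing replicates 1 and 2. In CPM this was 479.9 and 652 in wavefront libraries, against 484 and 405 in trailing libraries. The groups overlapped, since wavefront replicate 1 lay between the trailing libraries. The edgeR log2 fold change was 0.32 ± 0.32, with an adjusted p of 0.838. Col5a2 lies next to Col3a1 on chromosome 1, on the other strand with 24614 bases between them. The libraries were made without keeping strand, but the exons of the pair do not overlap.

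Between these neighbours the order of levels differed by library. Per kilobase of transcript, Col3a1 was at 52.5 and 147 CPM in wavefront replicates 1 and 2, against 30.2 and 31.5 CPM in trailing replicates. Col5a2 was at 72.4 and 98.5 CPM per kilobase in wavefront libraries, against 73.0 and 61.2 in trailing libraries. Col5a2 was thus the higher of the pair per length in wavefront replicate 1 and both trailing libraries, and Col3a1 in wavefront replicate 2. No other chain passed 30 CPM per kilobase in any library.

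Col1a1 and Col1a2 encode type I collagen, the main fibre of connective tissue and bone. Col1a2 (chr6:4504814-4541544, plus strand) had 17 and 10 reads in wavefront libraries, against 12 and 10 in trailing libraries. This was 37.6 and 87.0 CPM in wavefront libraries, against 31.0 and 30.2 CPM in trailing libraries. Both wavefront values were above both trailing values, but the edgeR log2 fold change of 0.76 ± 0.50 did not pass, with an adjusted p of 0.689. Col1a1 (chr11:94936224-94953042, plus strand) had 2 and 10 reads in wavefront replicates 1 and 2, against 0 and 2 in trailing replicates, too few for the count test. Its 87.0 CPM in wavefront replicate 2 stood apart from 4.42 CPM in wavefront replicate 1 and from 0 and 6.05 CPM in trailing replicates. Over pooled reads the ratio was 7.59-fold higher at the wavefront (95% counting interval 1.69 to 69.8), and 10 of the 14 reads were from wavefront replicate 2. Without that library the ratio was 1.59 (0.115 to 21.9).

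Col5a1 (chr2:27886425-28039514, plus strand) encodes the main chain of type V collagen. It had 29 and 10 reads in wavefront libraries, against 19 and 25 in trailing libraries. This was 64.1 and 87.0 CPM in wavefront libraries, against 49.2 and 75.6 CPM in trailing libraries, and the groups overlapped. The edgeR log2 fold change was 0.23 ± 0.39, with an adjusted p of 0.912. Of the 6 remaining fibrillar chains, Col24a1 had 0 reads, and Col2a1, Col5a3, Col11a1, Col11a2 and Col27a1 had under 10 reads each and 21 together. Col2a1, the chain of cartilage type II collagen, had 0 and 0 reads in wavefront libraries, against 2 and 2 in trailing libraries.

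Chains that share a molecule differed in balance from type to type. Type V trimers usually hold more Col5a1 than Col5a2 chains, yet Col5a1 gave 11.8% of the reads of the pair in each wavefront library, against 9.22% and 15.7% in trailing replicates 1 and 2. Per kilobase of transcript, Col5a2 was 9.49 and 9.52 times Col5a1 in wavefront libraries, against 12.5 and 6.80 times in trailing libraries. The excess of Col5a2 was thus seen in all 4 libraries, and the intervals of the Col5a1 share overlapped between all of them. Type I trimers usually hold more Col1a1 than Col1a2 chains. Col1a1 gave 10.5% of the pair's reads in wavefront replicate 1 (95% exact interval 1.30 to 33.1%) and 50% in wavefront replicate 2 (27.2 to 72.8%). Trailing replicates 1 and 2 gave 0% (0 to 26.5%) and 16.7% (2.09 to 48.4%). The interval of wavefront replicate 2 lay above that of trailing replicate 1 and overlapped the other 2. Over all 4 libraries, Col4a1 gave 55.4% of the reads of the type IV pair (41.5 to 68.7%) and Col9a2 gave 44.1% of those of the type IX pair (27.2 to 62.1%), and both intervals include equal shares. RNA levels say nothing of how much protein was made or assembled.

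**Figure D4:**
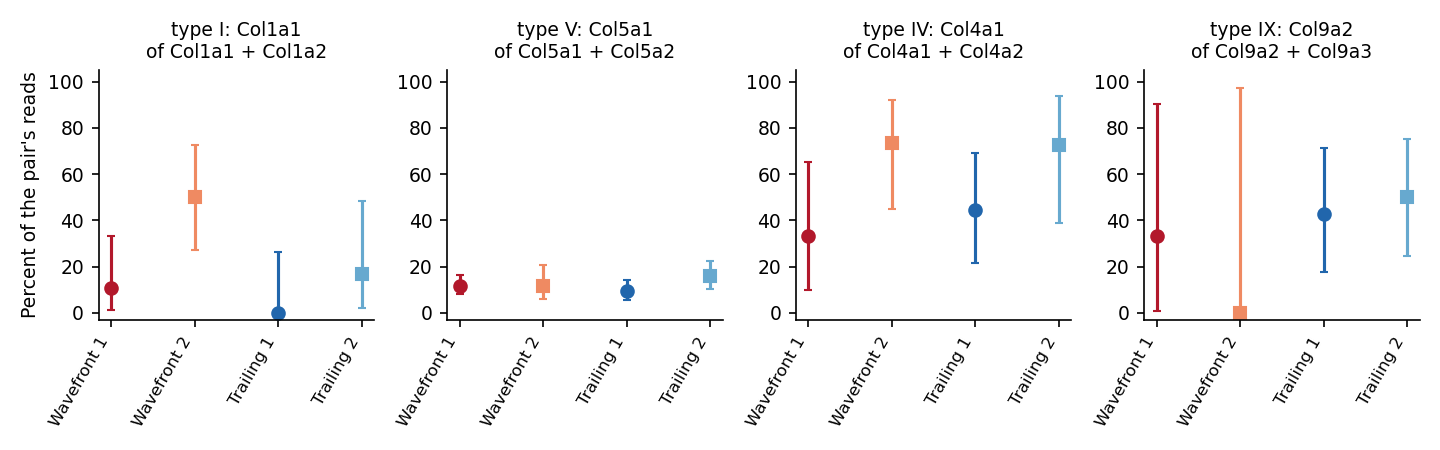
Points give the percent of a pair's reads that fell on the first chain, with 95% exact binomial intervals, in each library for types I, V, IV and IX. The Col5a1 share stays between 9.22% and 15.7%, while the Col1a1 share is 50% in wavefront replicate 2 and at most 16.7% in the other libraries, and the type IV and type IX intervals are wide.

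Type IV chains were low. Their summed level was 31.0 and 191 CPM in wavefront libraries, against 49.2 and 36.3 CPM in trailing libraries, so wavefront replicate 1 was below both trailing libraries and wavefront replicate 2 above. Col4a1 (chr8:11198423-11312826, minus strand), part of the network common to most basement membranes, had 4 and 11 reads in wavefront replicates 1 and 2, against 8 and 8 in trailing replicates. Its partner Col4a2 (chr8:11312805-11449287, plus strand) had 8 and 4 reads in wavefront libraries, against 10 and 3 in trailing libraries. In CPM, Col4a1 was at 8.85 and 95.7 in wavefront libraries, against 20.7 and 24.2 in trailing libraries. Both genes overlapped between groups and had too few reads for the count test. They are transcribed away from each other, and 22 exonic bases at their starts overlap, where reads cannot be told apart without strand. Col4a5 had 2 and 5 reads in wavefront libraries and 1 and 1 in trailing libraries, Col4a6 had 2 reads in all, and Col4a3 and Col4a4, known from kidney filters, had 0.

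Col18a1 (chr10:77052178-77166548, minus strand) encodes type XVIII collagen, a basement membrane proteoglycan whose end fragment is endostatin. It had 13 and 17 reads in wavefront replicates 1 and 2, against 45 and 34 in trailing replicates 1 and 2. In CPM this was 28.8 and 148 in wavefront libraries, against 116 and 103 in trailing libraries. The wavefront libraries lay on either side of the trailing libraries, and the edgeR log2 fold change of -0.84 ± 0.41 did not pass, with an adjusted p of 0.491. Its sign depended on which wavefront library was kept. Without wavefront replicate 2 the log2 fold change of Col18a1 was -1.78 ± 0.44 and passed, with an edgeR adjusted p of 0.00544, in a fit that called 2.02% of 7066 genes and 1.27% of them as lower. Without wavefront replicate 1 it was 0.34, with an edgeR adjusted p of 0.896. In each of these fits the lone wavefront library is assumed to vary like the trailing ones. The span of Col18a1 shares 8825 bases with that of Slc19a1, a folate carrier on the other strand with 68 reads, but no exons overlap. Col15a1, the other chain of the same kind, had 0 reads.

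**Figure D5:**
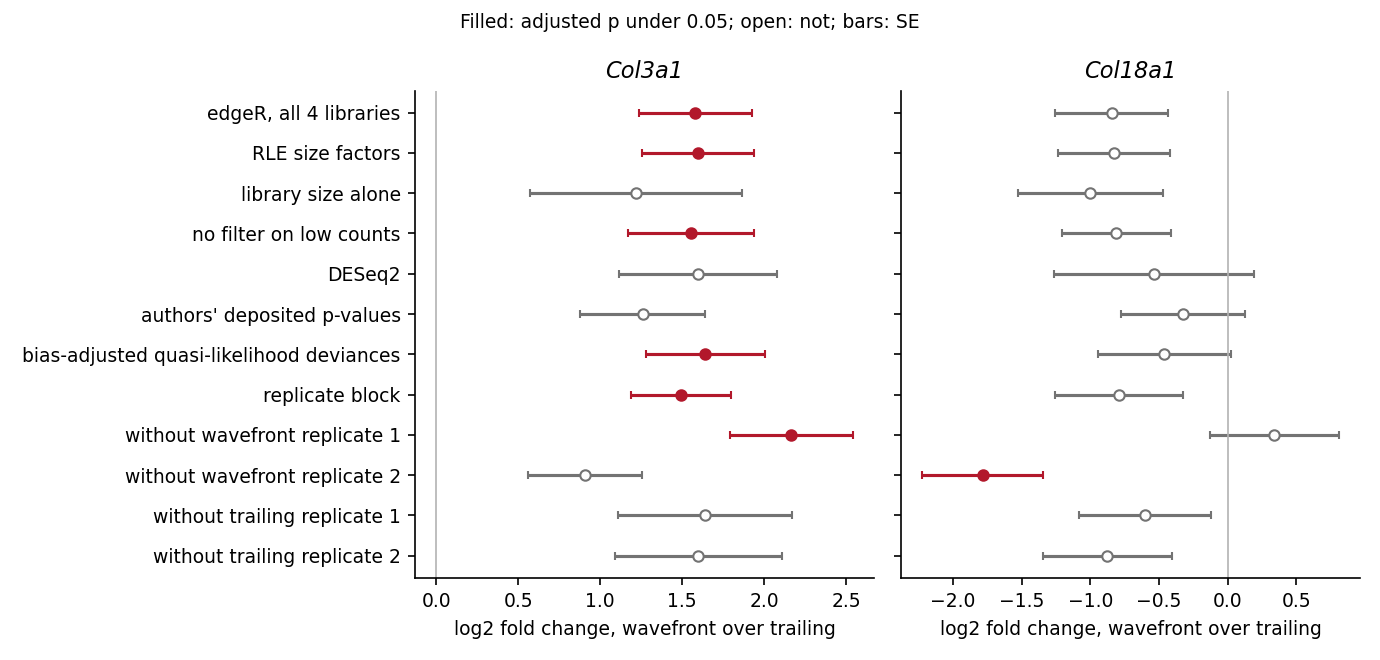
Points give the log2 fold change, wavefront over trailing, of Col3a1 (left panel) and Col18a1 (right panel) under the edgeR test on all 4 libraries and 11 alternatives, with SE bars. Filled points have an adjusted p under 0.05. Col3a1 runs between 0.91 and 2.17 and is filled in 5 of the 11 alternatives, and Col18a1 runs between -1.78 and 0.34 and is filled in 1, without wavefront replicate 2.

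Of the 4 membrane-spanning chains, Col25a1, a collagen of neurons needed in mice for motor axons to reach muscle, had most reads. Col25a1 (chr3:130131501-130599877, plus strand) had 8 and 3 reads in wavefront libraries, against 12 and 20 in trailing libraries. This was 17.7 and 26.1 CPM in wavefront libraries, against 31.0 and 60.5 CPM in trailing libraries. Both wavefront values were below both trailing values, but the edgeR log2 fold change of -1.13 ± 0.57 did not pass, with an adjusted p of 0.514. Col23a1 had 1 and 7 reads in wavefront replicates 1 and 2, against 0 and 0 in trailing replicates. Over pooled reads Col23a1 was 3.37-fold higher at the wavefront, against a floor of 3 reads over the trailing group. This value leaves out the counting error of its 8 reads, of which 7 were from wavefront replicate 2. Without that library Col23a1 had 1 read at the wavefront and 0 in trailing libraries, which gives no fold. Col13a1 had 0 and 0 reads in wavefront libraries, against 1 and 2 in trailing libraries, and Col17a1, the collagen of hemidesmosomes, had 1 read in all.

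FACIT chains summed to 17.7 and 78.3 CPM in wavefront libraries, against 46.6 and 54.4 CPM in trailing libraries. The pair with 10 or more reads belongs to type IX, the FACIT collagen that coats cartilage fibrils. Col9a3 (chr2:180597790-180622189, plus strand) had 2 and 1 reads in wavefront libraries, against 8 and 8 in trailing libraries. Col9a2 (chr4:121039385-121055322, plus strand) had 1 and 0 reads in wavefront libraries, against 6 and 8 in trailing libraries. For both chains, both wavefront libraries were below both trailing libraries. Pooled reads were 4.22-fold lower at the wavefront for Col9a3 (95% counting interval 1.21 to 22.6) and 11.1-fold lower for Col9a2 (1.68 to 468). Neither passed in limma, where the smallest adjusted p over collagen genes was the 0.680 given above, and both had too few reads for the count test. The third chain of the molecule, Col9a1, had 1 and 2 reads in wavefront libraries, against 0 and 1 in trailing libraries, and did not share that order. Of 6 cartilage and skeletal muscle markers, Acan, Matn1, Myod1, Myog and Myf5 had 0 reads, and Comp had 2, both in trailing replicate 1. The other FACIT chains had 1 to 9 reads, or 0 in the case of Col16a1, and Col22a1, found at tissue junctions, was the highest of them with 2 and 3 reads in wavefront libraries and 3 and 1 in trailing libraries.

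Type VI collagen, the beaded filament of soft connective tissue, was hardly detected. Its 6 chains gave 2 and 2 reads in wavefront libraries, against 1 and 2 in trailing libraries, from Col6a1, Col6a2 and Col6a3. Col6a4, Col6a5 and Col6a6 had 0 reads. The remaining chains at 0 were Col8a1, Col8a2, Col10a1 and Col28a1, which brings the chains without a read to 12. A count of 0 in a library still allows 3 reads, or 6.64 and 26.1 CPM in wavefront replicates 1 and 2 and 7.76 and 9.07 CPM in trailing replicates 1 and 2. These chains were thus not detected at this depth, and whether they were absent cannot be told. The 21 chains with 1 to 9 reads together held 78 reads, 5.46% of all collagen reads.

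The genes that make and fold procollagen were well detected, and none passed either test. Of 23 genes in this list, 21 had a read, and the edgeR count test had 0 higher, 0 lower and 13 not passing. Their summed level was 2869 and 2401 CPM in wavefront libraries, against 2504 and 2332 CPM in trailing libraries, and the groups overlapped. P4hb, the protein disulphide isomerase that is also a subunit of prolyl 4-hydroxylase, had 580 and 119 reads in wavefront libraries, against 395 and 268 in trailing libraries. Its edgeR log2 fold change was 0.36, with an adjusted p of 0.835. Sparc, a matrix protein that binds collagen, was at 0.13 with an edgeR adjusted p of 0.950. Ppib, the prolyl isomerase cyclophilin B, was at 0.03 with an edgeR adjusted p of 0.988. P4ha3 and Mia2 had 0 reads.

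Genes of procollagen trimming and cross-linking were sparse, with 10 of 13 detected and 0 of 2 called by edgeR. Bmp1, the protease that removes the procollagen C-terminal end, had 31 and 5 reads in wavefront libraries, against 17 and 13 in trailing libraries. Loxl3 and Loxl2 are lysyl oxidase relatives. Loxl3 had 13 and 4 reads in wavefront libraries, against 8 and 19 in trailing libraries, and Loxl2 had 9 and 2 in wavefront libraries, against 5 and 7 in trailing libraries. Lox, Loxl1 and Tll2 had 0 reads. Of 10 collagen receptor genes, Itgb1, Ddr1 and Mrc2 had reads, while Itga1, Itga2, Itga10, Itga11, Ddr2, Gp6 and Lair1 had 0. Itgb1, the beta 1 integrin chain that these alpha chains pair with, had 427 and 94 reads in wavefront libraries, against 211 and 159 in trailing libraries. Both wavefront libraries were above both trailing libraries in CPM, but its edgeR log2 fold change of 0.80 did not pass, with an adjusted p of 0.375. Ddr1, a collagen-activated receptor kinase, had 16 and 6 reads in wavefront libraries, against 6 and 16 in trailing libraries, and its edgeR log2 fold change was 0.40 with an adjusted p of 0.887. Mrc2, which takes up collagen fragments, had 3 and 1 reads in wavefront libraries, against 4 and 5 in trailing libraries. The limma fit called 0 genes of these 3 lists.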

How the data were processed

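Members and gene lists were chosen with earlier results of these data known. The submitters' processing notes name STAR 2.5.2b, featureCounts, bcl2fastq 2.17, FastQC 0.11.9 and DESeq2, and the build GRCm38 (mm10). Strand and multiple-hit settings and the annotation release are not stated in the sources used here. Values of each library are CPM made by the authors, per the file headers. All values (100%) were whole multiples of 1 read within 0.01 reads, so counts of whole reads were recovered from the deposited CPM: 543070 and 260217 in wavefront replicates 1 and 2, 517000 and 452142 in trailing replicates 1 and 2. The authors' mean column is a signal, the mean of size-factor-scaled reads. The deposited fold change and its error are on the log2 scale, the deposited Wald statistic is a score, and the deposited p-value is unadjusted and was adjusted here.

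Of 27606 rows, 428 repeats were dropped. CPM outside ribosomal RNA leaves out Rn45s, Rn18s, mt-Rnr1 and mt-Rnr2. As designed, limma 3.58.1 (trend, log2(CPM + 1), mean CPM above 1) was the test for CPM, on the deposited values with ribosomal reads in the total. For recovered reads the test was edgeR 4.0.16 (TMM, filterByExpr with 10 reads, two-sided quasi-likelihood F test, location as the only term). DESeq2 1.42.0 under R 4.3.3 was an alternative. In an exact permutation test, 2 against 2 libraries cannot go below a p of 0.333. Chains with 10 or more reads were named with every value, others by class, and from each pathway list called genes plus the 3 with most reads. Pathway members at 0 reads, the named chains under 10 reads and the markers besides their sums were named after their values were seen. Lengths are those of the GENCODE M21 transcript with the longest coding sequence. Exact intervals are Clopper-Pearson (95%).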

Additional observations from a re-analysis of the deposited data

How the results depend on the processing

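Col3a1 stayed higher at the wavefront under all 11 alternatives of the count test, and passed the adjusted threshold in 5 of them. Collagen calls numbered 1 in the edgeR test and 0 with library size alone (Col3a1 log2 fold change 1.22, edgeR adjusted p 0.807), with DESeq2 and with the authors' deposited p-values, and 0 to 1 with each library left out. Without trailing replicate 1 or 2 the Col3a1 log2 fold change was 1.64 or 1.60, with an edgeR adjusted p of 0.179 in both, the lone trailing library being assumed to vary like the wavefront ones. Without wavefront replicate 2 the 1 call was Col18a1, at -1.78, and not Col3a1, and Col18a1 turned to 0.34 without wavefront replicate 1. Over all genes the count test called 100, against 14 with DESeq2, 13 with the authors' deposited p-values, 61 with the replicate block and 40 to 143 with a library left out. The limma test called 0 genes, against 3 with a pseudocount of 5, 5 with no filter, 36 with a mean CPM above 10, 46 with TMM scaling, 4 with CPM outside ribosomal RNA and 52 with the replicate block, and it called 0 collagen genes in all 11 alternatives. Replicate numbers do not pair the libraries by the labels, and deviations of the first replicates correlated at 0.0589 over 5759 genes. With the replicate block the count test called 1 collagen gene, Col3a1, with an edgeR adjusted p of 0.0265. With all reads as the total, class means in wavefront and trailing libraries were 763 and 549 CPM for fibrillar chains (1318 and 734 outside ribosomal RNA) and 55.6 and 32.0 for type IV (111 and 42.7). They were 24.9 and 37.7 for FACIT chains (48.0 and 50.5) and 83.3 and 129 for other chains (162 and 173). The means of FACIT and other chains, near equal outside ribosomal RNA, were then lower at the wavefront, with no test. Both scales divide the same collagen reads by different totals. The change of scale lowers wavefront replicate 2 most, since 55.5% of its reads were ribosomal. Outside ribosomal RNA, the wavefront libraries of both classes lay on either side of the trailing ones, with other chains at 55.3 and 270 CPM, against 158 and 188 CPM. On all reads, other chains were at 46.7 and 119.9 CPM in wavefront libraries, against 119.4 and 139 CPM in trailing libraries, and overlapped. FACIT chains were then at 14.9 and 34.8 CPM, against 35.2 and 40.2 CPM, without overlap. Bias-adjusted quasi-likelihood deviances, like the ratios without wavefront replicate 2 an alternative chosen after seeing the data, kept Col3a1 as the 1 collagen call. Where no cause is given for a change, the cause was not tested. Depth limits these results: 38 of the 44 chains had too few reads for the count test.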
